A study of Homo sapiens with 14 samples.

Results

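Small nuclear RNAs (snRNAs) are the RNA cores of the spliceosome, and their genes were examined here through RNA polymerase II occupancy at their transcription start sites (TSSs). A gene was included when its symbol began with RNU and a digit or with RNVU. This chose 38 of the 28159 genes in the table. Some of them share the same window, so the 38 genes came to 29 of 27826 distinct windows, each 1000 bp long.

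The set held 12 windows of U1, 1 of U2, 2 of U4, 5 of U5 and 1 each of U4atac, U7, U11 and U12, which made 24 windows of genes transcribed by RNA polymerase II (Pol II). It held 1 window of U6 and 1 of U6atac, genes transcribed by RNA polymerase III (Pol III). The other 3 windows fell in neither class. RNU6ATAC35P is annotated as a transcribed pseudogene, and RNU105B and RNU105C are annotated as small nucleolar RNAs, not snRNAs.

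U1 recognises the start of an intron and U2 its branch point, and U4, U5 and U6 join them as a preassembled particle that carries out the splicing steps. U11, U12, U4atac and U6atac take the matching places in the minor spliceosome, which removes a small class of introns, and U7 is not a splicing RNA but directs the processing of histone messenger RNAs. All these genes are short and intronless and share an upstream proximal sequence element bound by the SNAPc complex. In most of them that element alone recruits Pol II, and the Integrator complex cleaves the transcript downstream. In U6 and U6atac a TATA box beside the element directs Pol III instead, so the promoters resemble each other while the polymerases differ.

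The cells were wild-type HCT116, a human colorectal carcinoma line, and chromatin immunoprecipitation (ChIP) used an antibody to the Ser5-phosphorylated form of Pol II, which marks polymerase near the start of genes. All cells were electroporated, with the peptide or with water, and kept 3 h in treatment medium. The groups were Nutlin3a with peptide (10 µM Nutlin3a, an MDM2 inhibitor that activates p53, plus a bivalent stapled peptide given at 10 µM during electroporation and at 200 nM in the medium), DMSO with the same peptide (0.1% DMSO), Nutlin3a alone (10 µM) and DMSO alone (0.1%). Each peptide group had 1 ChIP library and each group without peptide had 2, which made 6 ChIP libraries. Every group also had 2 inputs, sheared chromatin sequenced without antibody, which made 8. The design sets the peptide, which was made to block the binding of p53 to the Mediator complex, against its absence with and without p53 activation. Bulk chromatin cannot tell polymerase on fewer gene copies or cells from less polymerase on each.

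ChIP libraries held 1290223 to 2240951 counts in the windows and inputs 161719 to 359276, so that 1 input read was worth 2.68 to 5.89 CPM. CPM are counts scaled to a common library size, here by the TMM method, which equalises the bulk of windows between libraries. All windows have the same length, but input levels differ between windows, so ChIP levels compare between genes only beside their inputs. The 2 replicate 1 ChIP libraries stood apart from the 4 of replicate 2 at these genes. The share of all counts in the 29 windows was 1.19% for Nutlin3a and 1.01% for DMSO in replicate 1, against 0.474% to 0.525% in replicate 2, and 0.111% to 0.171% in the inputs. Both peptide libraries belong to replicate 2. As a check of the cell type label, 7 of 8 epithelial marker windows were higher in ChIP than in input by edgeR, where 25.1% of all genes were. Of 3 tested blood marker windows 0 were higher and 1 lower, and of 5 tested mesenchymal ones 0 were higher and 3 lower. Over all genes 15.5% were lower.

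Several windows do not stand for a single gene. RNU1-1, RNU1-2, RNU1-3, RNU1-4 and RNVU1-18 all carry the window at chromosome 1, 16740216 to 16741215 (hg38), which is the RNU1-4 locus, and it is called RNU1-4 here. RNU6-1, RNU6-2, RNU6-7, RNU6-8 and RNU6-9 all carry the window at chromosome 19, 1021222 to 1022221, the RNU6-2 locus, which overlaps the window of the protein-coding gene TMEM259. The windows of RNU2-1 (chromosome 17, 43251720 to 43252719) and RNVU1-11 hold no RefSeq gene of that symbol. U1, U2 and U6 genes have near-identical copies, and how reads with several matches were placed is not given in the sources used here, so the values of single copies are uncertain. No strand is stated for the counts.

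Pol II was higher in ChIP than in input at nearly all snRNA windows of the Pol II class. It was higher at neither window of the Pol III class with TMM or total-count scaling, but at both with scaling on olfactory receptor windows. Of the 23 tested Pol II windows, 20 were higher in ChIP and 0 lower by edgeR's quasi-likelihood test at an adjusted p (Benjamini-Hochberg, over 21504 genes) under 0.05. Over all genes tested, 25.1% were higher and 15.5% lower. The median log2 fold change of the 23 was 2.64, a 6.24-fold difference, against −0.04 for all genes. In 16 Pol II windows every ChIP library lay above every input, which was so for 13.0% of all genes tested. With replicate 2 alone 19 were higher and 1, RNVU1-8, was lower, where 26.5% of all genes were higher and 27.3% lower. With replicate 1 alone 8 were higher, where 0.458% of all genes were, and with DMSO alone 13, where 8.55% of all genes were.

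**Figure D1:**
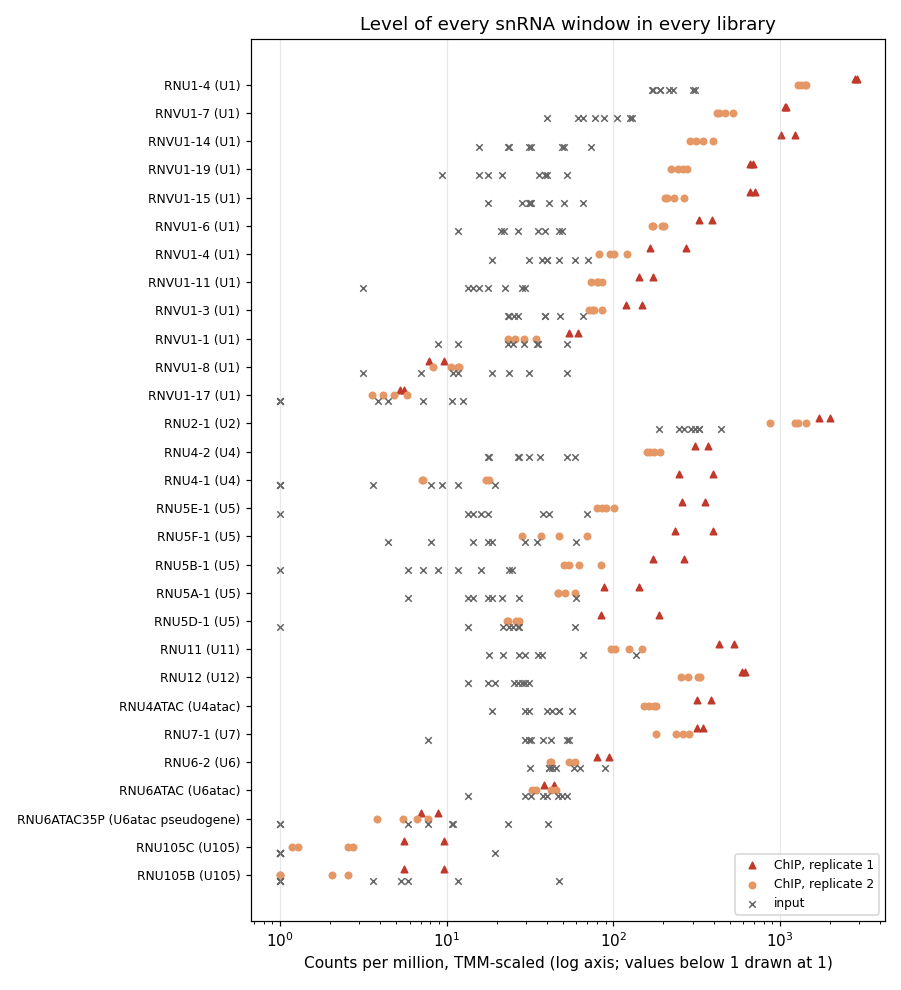
TMM-scaled CPM (log axis) of each of the 29 windows in each of the 14 libraries, with ChIP replicate 1 as triangles, ChIP replicate 2 as circles and inputs as crosses, and values below 1 drawn at 1. ChIP points lie right of the input crosses in the U1, U2, U4, U5, U7, U11, U12 and U4atac rows with high levels and among them in the U6 and U6atac rows.

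U1, which pairs with the intron's first bases, gave the highest window of the table. RNU1-4 held 1423 CPM in Nutlin3a with peptide, 1426 in DMSO with peptide, 2886 and 1277 in Nutlin3a (replicates 1 and 2) and 2801 and 1331 in DMSO (replicates 1 and 2). The inputs held 170 to 311 CPM (median 204). Both replicate 1 libraries were high, all 6 lay above the inputs, and the mean ranked 1 among all windows. The log2 fold change over input was 2.97 ± 0.22 (SE; adjusted p = 2.5e-11, edgeR). The input itself stood at 8.17 times the median window of 27.3 CPM.

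Of the other 11 U1 windows, all on chromosome 1, 8 were higher in ChIP. These RNVU1 loci are variant U1 genes that lie in duplicated parts of the chromosome. RNVU1-7 averaged 668 CPM in ChIP against 86.9 in inputs, and RNVU1-14 averaged 597 against 37.5. RNVU1-14 had a log2 fold change of 3.69 ± 0.32, RNVU1-19 of 3.64 ± 0.32, RNVU1-15 of 3.09 ± 0.30, RNVU1-6 of 2.85 ± 0.28 and RNVU1-7 of 2.84 ± 0.27, each with an adjusted p at or below 4.7e-09 (edgeR). The window of RNVU1-6 overlaps that of LINC01719, which averaged 110 CPM in ChIP and 33.0 in inputs.

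The U1 variants were not alike. RNVU1-4 (1.64), RNVU1-11 (2.57) and RNVU1-3 (1.38 on the log2 scale) were higher by smaller amounts. RNVU1-1 at 0.40 ± 0.36 (adjusted p = 0.36) and RNVU1-8 at −0.85 ± 0.55 (adjusted p = 0.21, edgeR) passed in neither direction. RNVU1-17 held 3.59 to 5.76 CPM in ChIP and 0 to 12.6 in inputs and was too low to be tested.

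U2, which pairs with the branch point, had the second highest level among the snRNAs. RNU2-1 held 1436 CPM in Nutlin3a with peptide, 1238 in DMSO with peptide, 1727 and 868 in Nutlin3a (replicates 1 and 2) and 1984 and 1289 in DMSO (replicates 1 and 2), against 188 to 440 CPM (median 301) in inputs. All ChIP values lay above all inputs, and Nutlin3a replicate 2 was the lowest of the 6. The mean ranked 5 among all windows. Its log2 fold change over input was 2.23 ± 0.20 (adjusted p = 1.1e-09, edgeR).

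The U4 genes RNU4-2 and RNU4-1 lie next to each other on chromosome 12 beside SIRT4. RNU4-2 held 176 CPM in Nutlin3a with peptide, 165 in DMSO with peptide, 370 and 191 in Nutlin3a (replicates 1 and 2) and 311 and 160 in DMSO (replicates 1 and 2). Inputs held 17.6 to 58.9 CPM (median 29.3), and the log2 fold change was 2.64 ± 0.28 (adjusted p = 1.3e-08, edgeR).

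RNU4-1 did not share that pattern. It held 7.19 CPM in Nutlin3a with peptide, 17.9 in DMSO with peptide, 398 and 17.2 in Nutlin3a (replicates 1 and 2) and 247 and 7.12 in DMSO (replicates 1 and 2), with inputs at 0 to 19.4 CPM. Replicate 1 was high in both treatments, while the 4 replicate 2 libraries lay within the input range. The window passed the test over input (adjusted p = 0.015, edgeR), but both DMSO inputs held 0 counts, so its fitted value of 3.75 depends on the prior count. With 3 counts over that group in place of 0 the mean log2 difference was at least 2.45 and the median of the 23 windows 2.57. Without input Nutlin3a with peptide replicate 2 its adjusted p was 0.068. The fitted value was 2.64 without DMSO replicate 1 and 2.79 without Nutlin3a replicate 1, against 4.56 without DMSO with peptide, 4.88 without Nutlin3a with peptide and 5.33 without input Nutlin3a replicate 1.

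U5 aligns the exon ends during splicing, and 4 of its 5 windows were higher in ChIP. RNU5E-1 led with 85.7 CPM in Nutlin3a with peptide, 90.9 in DMSO with peptide, 353 and 101 in Nutlin3a (replicates 1 and 2) and 259 and 79.5 in DMSO (replicates 1 and 2), against 0 to 70.0 CPM (median 16.9) in inputs. The replicate 1 libraries were the highest, and no ChIP value fell among the inputs. The log2 fold change was 2.75 ± 0.40 for RNU5E-1 and 2.95 ± 0.43 for RNU5B-1 (adjusted p = 3.0e-06 and 3.8e-06, edgeR). These values were 4.07 for RNU5E-1 without input DMSO replicate 2 and 4.37 for RNU5B-1 without input DMSO with peptide replicate 2, since the input left in each of those groups held 0 counts.

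RNU5F-1 (1.87 ± 0.48) and RNU5A-1 (1.58 ± 0.35 on the log2 scale) also passed. RNU5D-1 did not, at 1.18 ± 0.49 (adjusted p = 0.053, edgeR), although it passed without any 1 of the 4 replicate 2 ChIP libraries and, at 2.51, without input DMSO replicate 2. It held 189 and 84.0 CPM in replicate 1 of Nutlin3a and DMSO but 23.1 to 27.2 in replicate 2, inside the input range of 0 to 58.8. In replicate 2 alone its log2 fold change was 0.14, against 3.45 in replicate 1 alone.

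The 3 minor spliceosome genes of the Pol II class were all higher in ChIP. RNU12 held 331 CPM in Nutlin3a with peptide, 255 in DMSO with peptide, 617 and 321 in Nutlin3a (replicates 1 and 2) and 594 and 279 in DMSO (replicates 1 and 2), against 13.4 to 31.4 CPM (median 26.1) in inputs. The lowest ChIP library lay far above the highest input. Its log2 fold change of 3.91 ± 0.28 (15.1-fold, adjusted p = 1.3e-11, edgeR) was the largest of all members. Its window overlaps that of the protein-coding gene POLDIP3, which held 264 to 592 CPM in ChIP, so the promoters of both genes cannot be told apart.

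U4atac has its gene within CLASP1. RNU4ATAC held 181 CPM in Nutlin3a with peptide, 154 in DMSO with peptide, 388 and 175 in Nutlin3a (replicates 1 and 2) and 318 and 164 in DMSO (replicates 1 and 2), against 18.8 to 56.4 CPM (median 41.3) in inputs. The groups did not overlap, and the log2 fold change was 2.42 ± 0.27 (adjusted p = 4.5e-08, edgeR).

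RNU11 held 102 CPM in Nutlin3a with peptide, 125 in DMSO with peptide, 531 and 149 in Nutlin3a (replicates 1 and 2) and 432 and 97.3 in DMSO (replicates 1 and 2). Inputs held 17.9 to 137 CPM (median 32.4), and the highest, DMSO replicate 1, lay above 3 of the ChIP libraries. The log2 fold change was 2.12 ± 0.38 (adjusted p = 6.0e-05, edgeR).

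U7, the RNA of histone pre-mRNA processing, was higher in ChIP as well. RNU7-1 held 283 CPM in Nutlin3a with peptide, 262 in DMSO with peptide, 345 and 181 in Nutlin3a (replicates 1 and 2) and 317 and 238 in DMSO (replicates 1 and 2), against 7.78 to 54.3 CPM (median 34.9) in inputs. The groups did not overlap. The log2 fold change was 3.04 ± 0.25 (adjusted p = 1.9e-10, edgeR). The window overlaps that of C12orf57, which held 190 to 325 CPM in ChIP.

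At U6, the RNA at the catalytic centre of the spliceosome, ChIP and input overlapped. RNU6-2 held 59.0 CPM in Nutlin3a with peptide, 54.4 in DMSO with peptide, 94.9 and 42.6 in Nutlin3a (replicates 1 and 2) and 79.6 and 41.5 in DMSO (replicates 1 and 2), against 31.7 to 89.4 CPM (median 44.2) in inputs. Only Nutlin3a replicate 1 lay above every input. The log2 fold change was 0.24 ± 0.28 (95% interval −0.34 to 0.83, adjusted p = 0.49, edgeR). TMEM259, whose window overlaps it, held 75.4 to 118 CPM in ChIP against a mean of 49.9 in inputs and was higher in ChIP by 0.90 ± 0.24 on the log2 scale (adjusted p = 0.0040, edgeR).

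U6atac likewise showed no separation. RNU6ATAC held 34.4 CPM in Nutlin3a with peptide, 42.2 in DMSO with peptide, 43.9 and 45.3 in Nutlin3a (replicates 1 and 2) and 38.4 and 32.6 in DMSO (replicates 1 and 2), against 13.4 to 52.9 CPM (median 38.7) in inputs. All ChIP values lay within the range of the inputs. Its log2 fold change was 0.05 ± 0.30 (95% interval −0.56 to 0.66, adjusted p = 0.91, edgeR). The input counts behind these 2 windows were 3 to 20 reads a library, so changes inside the intervals were not detectable at this depth.

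**Figure D2:**
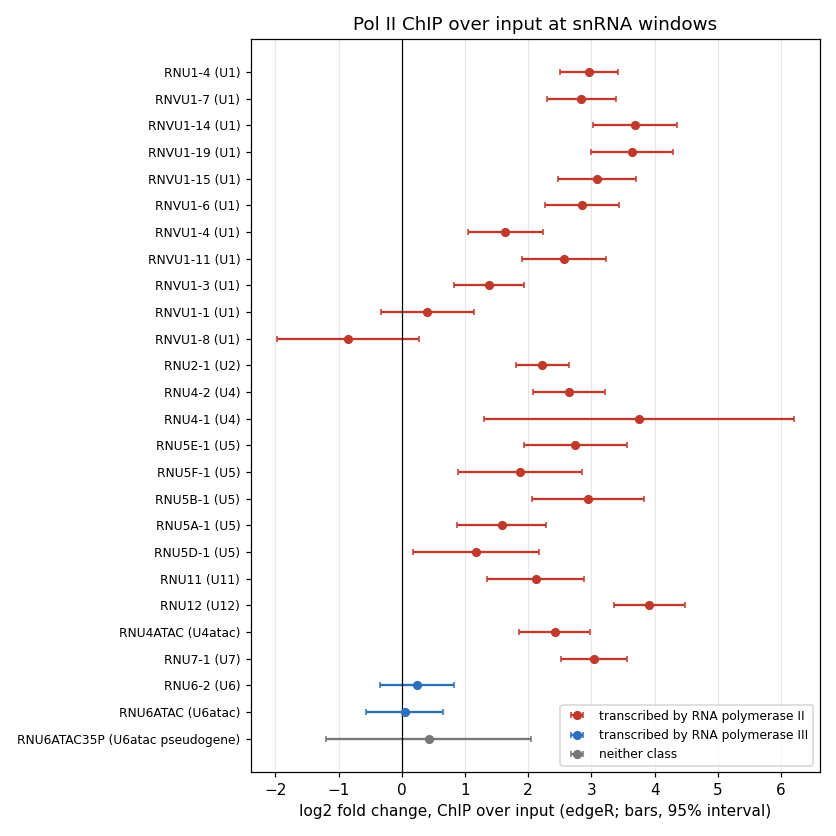
Log2 fold change of ChIP over input for each tested member window except RNU105B, from the edgeR fit to all 14 libraries, with 95% intervals. The interval lies above 0 for 21 of the 23 Pol II windows and includes 0 for RNVU1-1, RNVU1-8, RNU6-2, RNU6ATAC and the pseudogene RNU6ATAC35P.

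Set against each other, the Pol II class exceeded the Pol III class by 2.50 in median log2 fold change over input, a 5.65-fold difference. Each ChIP library was also set against the input of the same group and replicate number. In these 6 pairs the difference ranged from 1.65 to 2.82 (SD 0.38, n = 6). Only Nutlin3a replicate 1, at 2.82, lay above 2.50, and the others ranged from 1.65 to 2.26. It was 2.98 in replicate 1 alone and 2.10 in replicate 2 alone. A ratio within a library needs no scaling between libraries: the summed CPM of the 24 Pol II windows over that of the 2 Pol III windows was 60.1 to 103 in ChIP libraries and 9.39 to 19.0 in inputs, without overlap. The members of a class are not replicates of it, so no test was made of the class difference.

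**Figure D3:**
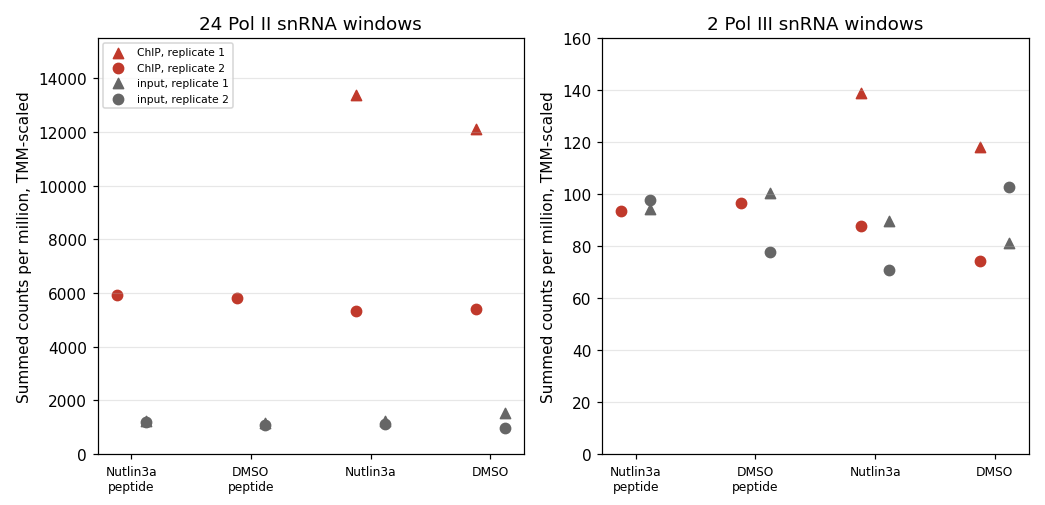
Summed TMM-scaled CPM of the 24 Pol II snRNA windows (left) and the 2 Pol III snRNA windows (right) in each library, by treatment, with ChIP in red, inputs in grey, replicate 1 as triangles and replicate 2 as circles. Pol II sums were 5310 to 13360 in ChIP against 965 to 1539 in inputs, while Pol III sums were 74.2 to 139 in ChIP against 70.7 to 103 in inputs.

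The position of U6 and U6atac against input depended on the scaling. When libraries were scaled on olfactory receptor windows, genes that as a rule are not expressed outside the nose, the median of all genes moved to 0.90 and 46.4% of genes were higher in ChIP. RNU6-2 then stood at 1.11 (adjusted p = 0.016) and RNU6ATAC at 1.03 (adjusted p = 0.038, edgeR), both near that median, and 22 of 23 Pol II windows were higher. By total counts the median of all genes was −0.33, RNU6-2 stood at −0.05 and RNU6ATAC at −0.25, and 20 Pol II windows were higher.

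Other small RNA genes made by Pol II or Pol III were set beside the snRNAs. The 7 listed genes of small RNAs made by Pol II from snRNA-type promoters, the U3 genes SNORD3A, SNORD3B-1, SNORD3B-2, SNORD3C and SNORD3D, the U8 gene SNORD118 and the U13 gene SNORD13, were all higher in ChIP by edgeR, where 25.1% of all genes were. The U8 gene was not higher by DESeq2 or limma-voom, which called the other 6, where 17.8% and 26.9% of all genes were higher. SNORD118 held 250 and 94.1 CPM in replicate 1 of Nutlin3a and DMSO but 4.11 to 7.55 in replicate 2, inside the input range of 0 to 11.8, and both Nutlin3a inputs held 0 counts. SNORD3A averaged 1764 CPM in ChIP against 102 in inputs (3.92 ± 0.25 on the log2 scale). SNORD3B-1 and SNORD3B-2 have the same values in every library, so the list came to 6 windows, with a median log2 fold change of 3.30, or of 2.82 without SNORD118.

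The list of other small RNA genes made by Pol III held RN7SK, RMRP, RPPH1 and the RNY and vault RNA (VTRNA) genes. It was not divided by promoter type. Of 10 tested, 2 were higher and 5 lower, where 25.1% of all genes were higher and 15.5% lower, with a median of −1.08. The higher ones were RPPH1, the RNA of RNase P, at 2.70 ± 0.22, and RMRP, the RNA of RNase MRP, at 0.92 ± 0.28. The lower ones were RN7SK (−1.12), RNY1 (−1.32), RNY3 (−2.13), RNY4 (−2.37) and VTRNA1-2 (−2.02). With olfactory receptor scaling 2 were higher and 0 lower, where 46.4% of all genes were higher and 0.423% lower. With total counts 1 was higher and 6 lower, where 16.7% and 25.3% of all genes were.

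The protein-coding genes of the snRNA machinery had median log2 fold changes over input between that of all genes and that of the Pol II snRNA windows. Their counts stand against 25.1% of all genes higher and 15.5% lower. SNAPc subunits, their activators and TFIIIB had 4 of 12 genes higher in ChIP than in input, led by SNAPC5 (2.75 ± 0.27) and ZNF143, an activator of snRNA promoters (2.01 ± 0.23). Integrator had 9 of 15 higher, led by INTS6 (2.50 ± 0.26), and 1 lower, INTS9 (−0.83 ± 0.28). Of 14 genes of snRNP assembly and export 10 were higher, with SMN1, the scaffold of the assembly complex, at 1.25 ± 0.21. Pol III subunits with the repressor MAF1 had 8 of 12 higher, and the little elongation complex 1 of 5 (ICE2, 1.89 ± 0.28). The median log2 fold change was 0.36 for the SNAPc list, 0.82 for Integrator, 1.11 for snRNP assembly, 0.89 for the Pol III subunits and 0.38 for the little elongation complex. Of 325 tested snoRNA and scaRNA windows 114 were higher and 20 lower, and of 115 olfactory receptor windows 1 was higher and 24 lower, beside the same shares of all genes.

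Replicate 1 ChIP libraries held more Pol II than replicate 2 at almost every Pol II snRNA window. This comparison was chosen after the libraries were seen to stand apart. With the replicate number added to the 4 groups, 22 of 23 tested Pol II windows were higher in replicate 1 and 0 lower at an adjusted p under 0.05 (edgeR), where 2.62% of all 25901 genes were higher and 0.649% lower. At an unadjusted p under 0.05 these shares were 9.74% and 5.58%, and the count of Pol II windows was again 22. The median log2 fold change was 1.13 (2.18-fold), against −0.00 for all genes. In 22 Pol II windows both replicate 1 libraries lay above all 4 of replicate 2, which was so for 15.8% of all genes. The fit leaves 1 residual degree of freedom, so its p-values rest on the spread pooled over all windows.

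**Figure D4:**
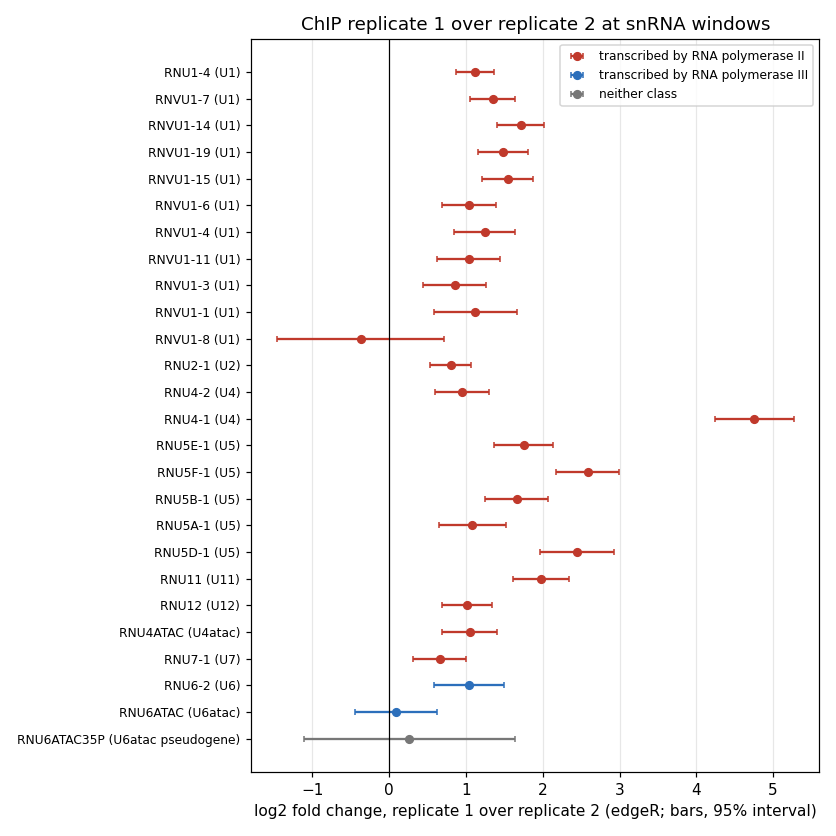
Log2 fold change of ChIP replicate 1 over replicate 2 for each tested snRNA window, from the edgeR fit with treatment groups and replicate number, with 95% intervals. Every Pol II window except RNVU1-8 lies above 0, with RNU4-1 far to the right at 4.75, while RNU6ATAC (0.09) lies at 0.

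The size of the difference was uneven. RNU4-1 was higher in replicate 1 by 4.75 ± 0.26 on the log2 scale, RNU5F-1 by 2.59 ± 0.21, RNU5D-1 by 2.44 ± 0.25, RNU11 by 1.98 ± 0.19 and RNU5E-1 by 1.75 ± 0.20. The abundant RNU1-4 (1.12 ± 0.13), RNU12 (1.01 ± 0.16), RNU2-1 (0.80 ± 0.13) and RNU7-1 (0.66 ± 0.18) differed less. By size of this difference RNU4-1 ranked 111 among the 25901 genes. RNVU1-8 stood at −0.37 ± 0.56. Between them lay RNVU1-14 (1.71), RNU5B-1 (1.66), RNVU1-15 (1.55), RNVU1-19 (1.49), RNVU1-7 (1.35), RNVU1-4 (1.24) and RNVU1-1 (1.13). For this comparison the fits without 1 library used treatment, peptide and replicate number as added terms in place of the 4 groups. Their counts thus differ from 22 through the model as well as the library. Without DMSO replicate 2 the count of Pol II windows called higher was 7, where 0.822% of all genes were, and without Nutlin3a replicate 2 it was 9, where 0.772% were. It was 22 without DMSO replicate 1 and 18 without Nutlin3a replicate 1, where 2.44% and 1.68% of all genes were.

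Of the Pol III class, RNU6-2 was higher in replicate 1 by 1.04 ± 0.23 (adjusted p = 0.00081) and RNU6ATAC stood at 0.09 ± 0.27 (adjusted p = 0.91, edgeR). RNU6-2 did not pass without DMSO replicate 2 (1.11, adjusted p = 0.067) or without Nutlin3a replicate 2 (0.97, adjusted p = 0.15, edgeR). The 7 listed small RNA genes with snRNA-type Pol II promoters were all higher in replicate 1, where 2.62% of all genes were, with a median of 1.88 over the 6 windows and SNORD118 at 4.65 ± 0.31. Of the 11 listed small RNA genes made by Pol III 0 passed (median 0.14). Of 491 tested snoRNA and scaRNA windows 118 were higher (median 0.76), and of 285 olfactory receptor windows 18 were higher and 2 lower (median 1.14). Windows near background can be tested through a single library where they are high, so the filter on low counts may shift both medians. Integrator, snRNP assembly and the Pol III subunits had 1 gene each higher, and the SNAPc list and the little elongation complex 0, where 2.62% of all genes were higher and 0.649% lower.

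In inputs no snRNA window was called different between the replicates, but the test there was weak. Of the 14 Pol II windows deep enough to be tested there, 0 passed in either direction by edgeR, where 0.00686% of genes were higher and 0.00% lower. Their median was 0.14, and only RNU11 (1.15 ± 0.52) had an unadjusted p under 0.05, where 1.96% of genes did on the higher and 2.36% on the lower side. The share of mitochondrial counts was 0.122% for Nutlin3a and 0.0295% for DMSO in replicate 1 ChIP, against 0.00948% to 0.0270% in replicate 2. Olfactory receptor windows took 0.373% and 0.179% of counts in the same 2 libraries, against 0.127% to 0.156% in replicate 2. Their part in the replicate difference was not tested.

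No snRNA window passed the test of Nutlin3a against DMSO without peptide in the fit without replicate number. In that comparison 0 of 23 Pol II windows and 0 of 2 Pol III windows passed in either direction by edgeR, where 0.00772% of all 25901 genes were higher and 0.00% lower. No member had an unadjusted p under 0.05, where 1.27% of genes did so on the higher side and 1.05% on the lower. DESeq2 also called 0. The Pol II windows had a median log2 fold change of 0.22, with 21 positive and 2 negative, against a median of 0.04 for all genes.

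RNU5A-1, which had the smallest p on the positive side, held 142 and 59.0 CPM in Nutlin3a (replicates 1 and 2) and 87.9 and 46.9 in DMSO. Both Nutlin3a libraries lay above the DMSO library of the same number, but the replicate 2 value of Nutlin3a lay below replicate 1 of DMSO. The log2 fold change was 0.56 ± 0.34 (95% interval −0.16 to 1.29, adjusted p = 0.98, edgeR). RNU2-1, on the negative side, stood at −0.33 ± 0.31 (−0.98 to 0.32, adjusted p = 0.98). RNU1-4 stood at 0.02 ± 0.36 (−0.74 to 0.78), so in this fit a change inside its interval could not be detected. This fit leaves the difference between replicates in the spread. With the replicate number added to the groups, RNU1-4 stood at −0.0006 ± 0.13. In that fit 1 window, RNU5F-1, was higher under Nutlin3a (0.82 ± 0.21, adjusted p = 0.042, edgeR), where 39 of 25901 genes were.

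The 5 U5 windows had the highest median of any snRNA with several windows, 0.61, with values of 0.42 to 0.96. Positive medians were also found outside the snRNAs. In the same comparison the median was 0.92 over the 285 tested of 423 olfactory receptor windows. It was 0.45 over the 491 tested of 568 snoRNA and scaRNA windows. Windows near background can be tested through a single library where they are high, so the filter on low counts may shift both medians. The machinery lists had medians from −0.21 (Integrator) to −0.04 (little elongation complex). The medians within a replicate over the 24 Pol II windows were 0.27 in replicate 1 (21 positive) and 0.14 in replicate 2 (16 positive). Over all 25901 genes tested they were 0.06 (13899 positive) and 0.00 (12951 positive). The counts of calls turned on single libraries. Without DMSO replicate 1, which leaves replicate 1 on the Nutlin3a side only, 7 Pol II windows were higher, where 0.349% of all genes were. Without Nutlin3a replicate 2 there were 4, where 0.144% of all genes were higher. Without Nutlin3a replicate 1, 1 window, RNU4-1, was lower at −2.89, where 0.0634% of all genes were lower.

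**Figure D5:**
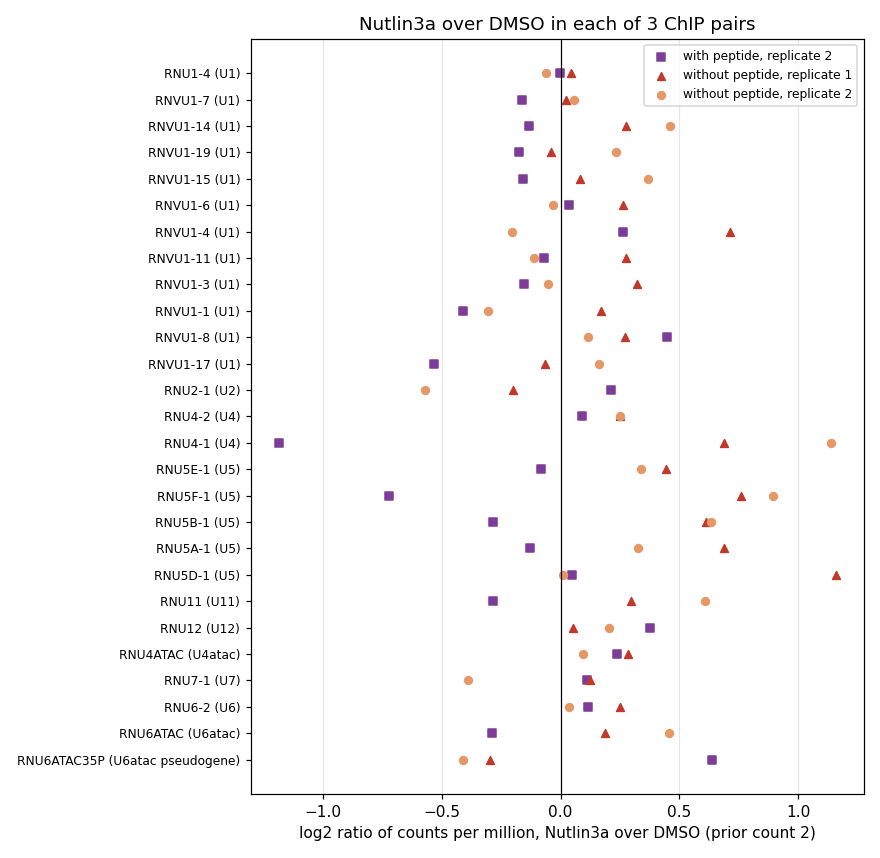
Log2 ratio of CPM, Nutlin3a over DMSO, for each snRNA window in the 3 pairs of ChIP libraries that share peptide status and replicate number (prior count 2). Squares are the pair with peptide, triangles replicate 1 and circles replicate 2 without peptide; U5 windows lie right of 0 without peptide and at −0.72 to 0.05 with it.

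With peptide the Nutlin3a to DMSO ratio came from 1 library each and was not tested on its own. Its median over the 24 Pol II windows was −0.11, with 9 positive, where 13086 of 25901 genes were positive. Of the 24, 5 were above 0 in all 3 pairs, where 14.7% of all genes were. The difference between the response with and without peptide was tested as an interaction, and 0 snRNA windows passed in either direction by edgeR or DESeq2, where 0.00% of all genes did. No member had an unadjusted p under 0.05, where 0.413% of genes did on the higher and 0.641% on the lower side.

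In that interaction the Pol II windows had a median of −0.22 on the log2 scale, with 5 positive and 18 negative, against −0.01 for all genes. Among the Pol II and Pol III classes the smallest p on either side belonged to RNU2-1 at 0.53 ± 0.53 (95% interval −0.59 to 1.66) and RNU6ATAC at −0.64 ± 0.50 (−1.70 to 0.42), both with an adjusted p of 1.0 (edgeR). The 5 U5 windows were all negative, from −1.52 for RNU5F-1 to −0.51 for RNU5E-1. Olfactory receptor windows had a median of −1.15 in this interaction and snoRNA and scaRNA windows of −0.30, both under the same limit from the filter. Medians of the machinery lists ran from 0.03 to 0.20. Without DMSO replicate 1, RNU5F-1 and RNU4-1 were lower at −3.41 and −6.16, where 0.135% of all genes were lower (edgeR).

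Peptide against no peptide, averaged over Nutlin3a and DMSO, also gave 0 snRNA windows in either direction by edgeR and DESeq2, where 0.00% of all genes passed. No gene of the comparison and machinery lists passed for Nutlin3a, the interaction or the peptide either (edgeR). At an unadjusted p under 0.05, 12 of 23 Pol II windows were lower and 0 higher, where 2.39% of all genes were lower and 0.718% higher. Of the 23, 22 were negative, with a median log2 fold change of −0.63 against −0.02 for all genes. Olfactory receptor windows had a median of −1.01 and snoRNA and scaRNA windows of −0.58, both under the same limit from the filter. Medians of the machinery lists ran from −0.09 to 0.04. RNU5F-1 stood at −2.27 ± 0.63 (unadjusted p = 0.0023, adjusted p = 1.0) and RNU7-1 at 0.02 ± 0.24 (adjusted p = 1.0). Both peptide libraries are of replicate 2 and 2 of the 4 without peptide are of replicate 1, so the peptide and the replicate cannot be told apart in this average.

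Within replicate 2 the medians were not negative. Peptide over no peptide had a median log2 ratio of 0.03 over the 24 Pol II windows under Nutlin3a (13 positive) and of 0.18 under DMSO (20 positive). Of all 25901 genes tested, 12742 were positive under Nutlin3a and 12774 under DMSO. RNU5F-1 stood at −1.26 under Nutlin3a and 0.35 under DMSO, and RNU2-1 at 0.73 and −0.06. The number of Pol II windows called lower in the average was 15 without Nutlin3a replicate 2 and 9 without DMSO replicate 2, which leave only replicate 1 in an arm without peptide, where 0.644% and 0.728% of all genes were lower. It was 4 without Nutlin3a replicate 1 and 2 without DMSO replicate 1, where 0.110% and 0.0555% of all genes were.

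The 3 remaining windows were low. RNU6ATAC35P held 3.84 to 8.91 CPM in ChIP and 0 to 40.8 in inputs, RNU105B 0 to 9.67 and 0 to 47.1, and RNU105C 1.19 to 9.67 and 0 to 19.4. None passed in any comparison by edgeR, and RNU105C was too low to be tested against input. RNU105B had an unadjusted p of 0.029 between replicates (edgeR), at 10 and 11 reads in replicate 1 and 0 to 5 in replicate 2. A window this low can enter that test through its replicate 1 reads alone, so the p-value is no evidence of a difference.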

How the data were processed

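The authors deposited raw read counts in 1 window of 1000 bp per gene for 6 ChIP and 8 input libraries, on hg38 per the submitters' processing notes. No aligner, counting tool or rule for reads with several matches is given in the sources used here. A second deposited column per ChIP library holds a scaled signal, per the file headers. Each such signal equalled the raw count multiplied by a constant of that library, of unstated origin, and was used only as an alternative scaling. Groups came from the sample titles and treatment labels. Nothing states that replicates came from separate cultures, so the p-values reflect only variation among these libraries, which may be technical.

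Counts were fitted with edgeR 4.0.16 in R 4.3.3 (glmQLFit with legacy=TRUE, glmQLFTest), with TMM scaling and filterByExpr at a minimum count of 10. ChIP against input used all 14 libraries in 8 groups (21504 genes, 6 residual degrees of freedom), and treatments used the 6 ChIP libraries in 4 groups (25901 genes, 2 residual degrees of freedom), which treats the single library of a peptide group as varying like those of other groups. P-values were adjusted over all genes tested by the Benjamini-Hochberg method at 0.05. Errors are standard errors and intervals 95% intervals. Alternatives were DESeq2 1.42.0, limma 3.58.1 (voom), total counts, scaling on olfactory receptor windows, the authors' constants, other filters, a replicate block and leaving out each library. The fits were tested on simulated data. RefSeq (GRCh38.p14) matched 36 of the 38 symbols and gave biotypes and neighbouring genes. The genes named with values were the window with the highest mean ChIP level of each snRNA, up to 12 with the largest changes among those past the threshold, and otherwise the smallest p in each direction, and further windows were named after their values were seen. The members and gene lists were chosen with earlier results of these data known.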

Additional observations from a re-analysis of the deposited data

Results flagged for a closer look

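The windows with the highest mean ChIP level of each snRNA were RNU1-4, RNU2-1, RNU4-2, RNU5E-1, RNU7-1, RNU11, RNU12, RNU4ATAC, RNU6-2 and RNU6ATAC. Of these, 4 had a Nutlin3a to DMSO log2 ratio of the opposite sign with peptide and in both replicates without it. The share of all genes with such signs was not counted, so the 4 are not read as a trait of these genes. RNU11 stood at −0.29 with peptide, against 0.30 and 0.61 in replicates 1 and 2 without it. RNU5E-1 stood at −0.083 with peptide, against 0.44 and 0.34. RNU6ATAC stood at −0.29 with peptide, against 0.19 and 0.46. RNU2-1 went the other way, at 0.21 with peptide against −0.20 and −0.57. The pair with peptide is 1 library against 1, so the sign itself was not tested. The interaction fit, which tests the difference in response, called none of the 4 past the threshold (edgeR, adjusted p of 1.0 for each).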

How the results depend on the processing

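The count of Pol II snRNA windows higher in ChIP than in input was 20. It was 19 to 22 under other scalings, tools, filters and single libraries left out. In DMSO without peptide alone it was 13 and in replicate 1 alone 8, where fewer libraries enter. Among windows that overlap no other it was 16, since RNU12, RNU7-1, RNVU1-6 and RNVU1-3, all higher, overlap other windows. In replicate 2 alone 1 window was lower. The class difference of 2.50 was 2.98 in replicate 1 alone, 2.10 in replicate 2 alone and 2.31 to 2.57 with single libraries left out. RNU6-2 over input turned to −0.052 by total counts and −0.29 in replicate 2 alone. RNU6ATAC turned to −0.25 by total counts, −0.14 by DESeq2 and −0.36 in replicate 1 alone, and ranged from −0.14 to 0.33 with single libraries left out.

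Leaving out single ChIP libraries gave 0 to 7 Pol II windows higher and 0 to 1 lower for Nutlin3a against DMSO, 0 to 2 lower for the interaction, 0 to 15 lower for the peptide and 7 to 22 higher for replicate 1 against replicate 2. RNU5A-1 then ranged from −0.19 to 1.09 and RNU2-1 from −0.91 to 0.10 for Nutlin3a against DMSO, and RNU7-1 from −0.19 to 0.28 for the peptide. For replicate 1 against replicate 2 these fits also used added terms in place of the 4 groups. With the authors' constants RNU2-1 stood at 0.31 for Nutlin3a and RNU7-1 at −0.34 for the peptide. That scaling put the all-gene median at 0.53 in place of 0.04 for Nutlin3a and at −0.29 in place of −0.02 for the peptide. For replicate 1 against 2 this median was 0.57 in place of −0.00. Under the same scaling 2 windows were lower with peptide, where 76 of 25901 genes were. In replicate 1, 19 windows were higher, where 633 of 25901 genes were. A stricter filter, a mean count of 50 or more, put RNU7-1 at −0.0030. The cause of these shifts was not tested.

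The replicate numbers were not taken to pair the libraries, since only 2 numbers are shared by the groups compared. The deviations of same-numbered DMSO and Nutlin3a ChIP libraries correlated at 0.38, and those of a ChIP library and the same-numbered input at 0.06 and 0.07. With the replicate block 1 window, RNU5F-1, was higher under Nutlin3a (0.82, adjusted p = 0.042, edgeR), where 39 of 25901 genes were. For the interaction and the peptide 0 windows were called, where 5 genes were lower and 1 gene was higher. In the block fit 21 windows were higher in ChIP than in input, where 5322 of 25551 genes were, with a class difference of 2.45. Input depth limits the windows of low level, where 1 read is worth several CPM.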
